A study of Mus musculus with 8 samples.

Results

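Genes of glycolysis and genes induced by low oxygen were followed in the developing mouse retina, in libraries labelled wild type (WT) and libraries labelled C3 KO. The set was a list of 42 gene symbols, and each symbol was looked up in a table of read counts. All 42 were among the 16109 genes of that table, and all 42 passed the filter on low counts. They comprised 17 glycolytic enzymes, 6 enzymes that regulate the flow of glucose carbon, 4 glucose and lactate transporters, 12 targets of hypoxia-inducible factor (HIF) outside glycolysis and 3 subunits of HIF itself.

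The tissue was retina of C57BL/6 mice on postnatal day 5, and each label had 4 messenger RNA libraries. Complement component C3, which the KO label names, is cleaved when the complement cascade is activated. The allele behind the KO label, the number of animals per library and their sex were not given in the labels, so p-values measure the spread between these libraries, which may be technical. Hyaloid vessels, the embryonic vessels on the inner face of the retina, were removed at dissection in all libraries, and RNA with a poly(A) tail was selected.

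Glycolysis splits glucose to pyruvate, and lactate dehydrogenase turns pyruvate to lactate. The retina, and its photoreceptors in particular, is known for making lactate from glucose even when oxygen is present. When oxygen is low, the HIF-α proteins (Hif1a, Epas1) escape the prolyl hydroxylases that mark them for breakdown, pair with Arnt and bind short DNA motifs (ACGTG or GCGTG) near their targets, which include most glycolytic enzymes. In the retina of a newborn mouse, vessels grow outward from the optic nerve into tissue that has no vessels yet, and HIF activity in that tissue is part of the known signalling that draws them.

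C3 itself went against the labels. It had 52, 45, 33 and 55 reads in WT-labelled replicates 1 to 4 and 1718, 1585, 1550 and 1419 reads in C3 KO-labelled replicates 1 to 4. The log2 fold change was 5.04 ± 0.10 (SE, edgeR adjusted p = 1.39e-20), higher under the KO label. Gene counts do not show which part of the gene the reads came from, so every direction below is a direction between libraries as labelled. The sex-linked Xist stood at 2441, 2369, 295 and 2195 CPM (reads of a gene over the scaled library total) in the WT-labelled libraries and at 1.48 to 2.65 CPM in those labelled C3 KO. Transcripts from the Y chromosome were high in all 4 C3 KO-labelled libraries and in WT-labelled replicate 3, so sex and label could not be told apart beyond that library.

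Libraries held 16503564 to 19608824 reads, and pairs within a label differed by more than sampling noise (chi-square per degree of freedom of 3.70 to 7.03). Marker genes were counted when called at an edgeR adjusted p below 0.05. Of all genes tested, 14.3% were called, 5.98% lower and 8.33% higher. Among marker genes of other cells, all 5 red blood cell genes in the table fell under the C3 KO label. They summed there to 18.1 to 23.2 CPM, against 28.5 to 51.2 CPM. Pigment epithelium genes were higher for 9 of 12, with sums of 465 to 492 CPM against 324 to 355 CPM under the WT label. These sums include Rlbp1, which was not called and is also on the progenitor and Müller glia list. Its mean was 175 CPM under the C3 KO label and 206 CPM under the WT label. Photoreceptor genes were lower for 3 of 8 and summed to 4993 to 6177 CPM against 5933 to 6574 CPM. Progenitor and Müller glia genes were lower for 3 and higher for 1 of 8, ganglion cell genes higher for 6 of 8, fibroblast genes higher for 3 of 6, microglia genes for 3 of 9, astrocyte genes for 2 of 6 and endothelial genes for 1 of 8, while 1 of 8 pericyte genes was lower. Pdgfra, called higher, is on both the astrocyte and the fibroblast list and was counted in each. At 12.5% called, the endothelial and pericyte lists were near the share over all genes. Retinal markers were abundant, and no listed marker that was measured was at 0 reads in every library. The part of these cell types in the results on glycolysis was not tested, and in bulk tissue fewer cells of a type and less RNA per cell cannot be told apart.

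Under the C3 KO label 12 of the 42 genes fell and 4 rose (edgeR quasi-likelihood test, Benjamini-Hochberg adjusted p below 0.05 over all 15850 genes tested). That is 38.1% of the set, where 14.3% of all genes tested were called, 5.98% lower and 8.33% higher. The log2 fold change (C3 KO label over WT label) was below 0 for 28 genes and above 0 for 14, with a median of -0.08 against 0.0044 over all genes tested. CPM values did not overlap between labels for 16 of the 42 genes, and for 17.4% of all genes tested. Glycolytic enzymes were called for 5 of 17, 3 lower and 2 higher, with a median log2 fold change of -0.06. HIF targets outside glycolysis were called for 6 of 12, 5 lower and 1 higher, with a median of -0.16. The called changes were 1.10-fold to 1.46-fold in size for every called gene except Egln3, which was 1.81-fold lower.

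**Figure D1:**
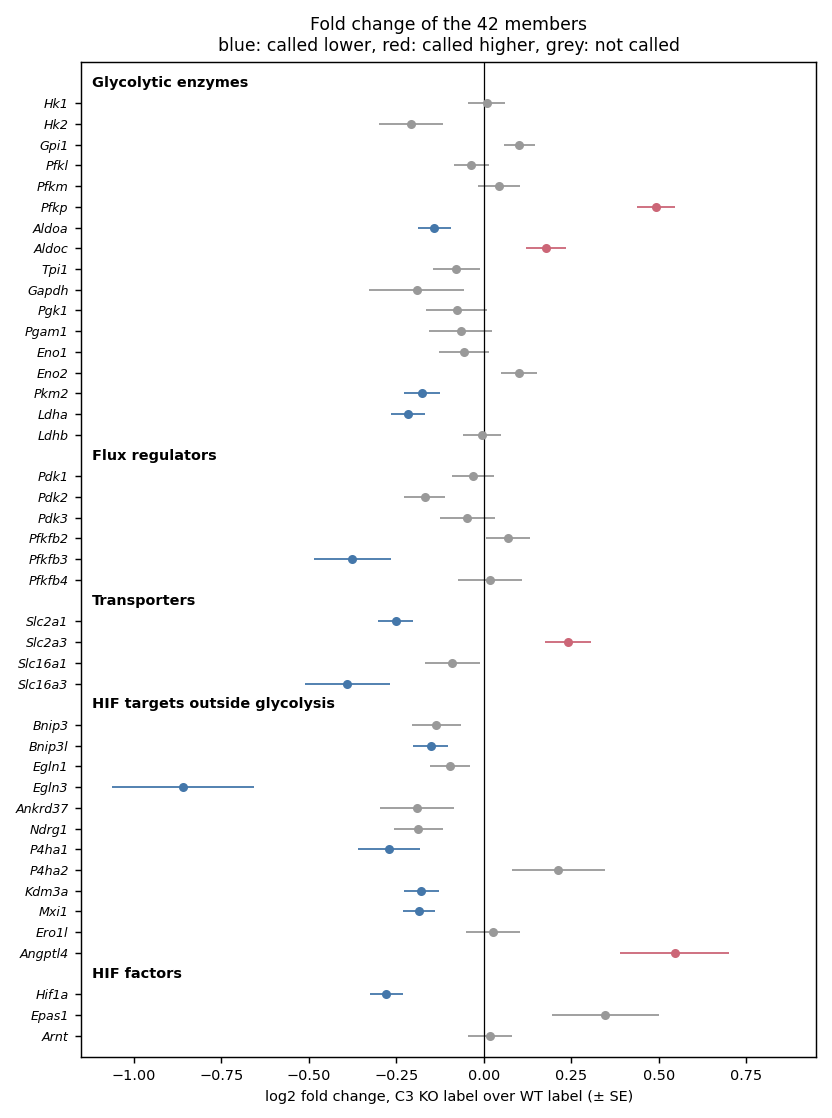
Log2 fold change of each of the 42 genes, C3 KO label over WT label, grouped by role, with error bars of 1 SE from the edgeR fit over 4 libraries per label; blue marks genes called lower, red genes called higher and grey genes not called. Egln3 at -0.86 is the lowest called gene, and Angptl4 at 0.54 and Pfkp at 0.49 are the highest.

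Promoters of 4 genes on which the results turn are shown because they carry the motif through which HIF is known to act. Ldha is the glycolytic enzyme that fell most and Egln3 the HIF target that fell most, Slc2a1 is the transporter with the smallest p, and Pfkp is the enzyme that rose most. Each line gives the 250 bases before a RefSeq transcription start (build GRCm38.p6, gene strand, 5′ to 3′), with ACGTG or GCGTG on either strand in capitals. The stretches are chr7:46845554-46845803 on the plus strand, chr4:119108495-119108744 on the plus strand, chr12:54203875-54204124 on the minus strand and chr13:6648772-6649021 on the minus strand.
Ldha: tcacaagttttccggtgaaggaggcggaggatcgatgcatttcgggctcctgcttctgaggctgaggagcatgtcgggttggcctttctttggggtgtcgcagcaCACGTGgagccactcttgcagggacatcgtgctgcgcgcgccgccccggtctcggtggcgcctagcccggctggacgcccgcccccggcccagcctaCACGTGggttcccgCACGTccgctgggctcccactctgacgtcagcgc
Slc2a1: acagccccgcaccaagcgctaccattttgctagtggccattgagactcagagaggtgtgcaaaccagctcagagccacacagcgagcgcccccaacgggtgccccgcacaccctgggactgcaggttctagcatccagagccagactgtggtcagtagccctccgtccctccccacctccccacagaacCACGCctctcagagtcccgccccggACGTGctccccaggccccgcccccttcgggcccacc
Egln3: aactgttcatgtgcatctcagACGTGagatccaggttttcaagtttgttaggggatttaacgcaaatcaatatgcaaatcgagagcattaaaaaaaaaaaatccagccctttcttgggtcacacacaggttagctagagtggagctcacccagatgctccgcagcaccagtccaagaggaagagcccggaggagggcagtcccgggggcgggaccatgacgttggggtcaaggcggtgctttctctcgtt
Pfkp: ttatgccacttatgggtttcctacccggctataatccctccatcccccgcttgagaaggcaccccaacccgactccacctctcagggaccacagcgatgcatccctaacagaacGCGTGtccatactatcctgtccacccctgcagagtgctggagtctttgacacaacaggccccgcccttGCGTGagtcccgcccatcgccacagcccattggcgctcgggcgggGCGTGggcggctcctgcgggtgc
The stretches hold 5, 2, 1 and 3 matches in that order, each CACGTG counting as 2 because it reads ACGTG on both strands. Ldha has 2 RefSeq windows, and the stretch shown was chosen as the one with more matches. With 50 bases after the start included, its windows held 7 and 2 matches. Slc2a1, Egln3 and Pfkp have 1 window each. Across windows that also take in 50 bases after the start, 34 of the 37 genes of the set with a RefSeq window had a match, that is 91.9%, against 66.7% of the 10358 tested genes with a window and 46.7% of all 27025 genes with one. A gene can have several starts. Counted by window, 45 of the set's 57 windows had a match, that is 78.9%, against 43.8% of all 32851 windows. The window share of tested genes alone was not taken, and by gene theirs was above that of all genes. All 11 called lower genes and both called higher genes with a window had a match. The motif was therefore on the promoters of genes that rose as well as genes that fell, and a match is a description of letters, not of binding.

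Among the enzymes that commit glucose to glycolysis, the phosphofructokinase isoform Pfkp rose, while Hk1, Hk2, Gpi1, Pfkl and Pfkm were not called. Pfkp was at 295, 289, 291 and 284 CPM in WT-labelled replicates 1 to 4 and at 428, 364, 396 and 444 CPM in C3 KO-labelled replicates 1 to 4, an order kept below. All 4 C3 KO-labelled libraries lay above all WT-labelled ones. The means were 289.9 ± 4.67 and 408 ± 35.3 CPM (SD, n = 4 each), a log2 difference of 0.49 ± 0.05 (SE, edgeR adjusted p = 2.30e-06). Phosphofructokinase makes the first committed step, and its muscle and liver isoforms were not called: Pfkm had a log2 fold change of 0.04 ± 0.06 and Pfkl of -0.04 ± 0.05 (SE, edgeR adjusted p = 0.699 and 0.69). Per length, in the authors' RPKM, Pfkp made up 29.2% ± 0.447 of the 3 isoforms in the WT-labelled libraries and 36.6% ± 2.39 in the C3 KO-labelled ones (SD, n = 4 each). The sum of the 3 was 106 ± 0.324 and 118 ± 5.64 RPKM.

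Hexokinase, which traps glucose in the cell, was not called in either form. Hk1 was at 312 to 363 CPM in the WT-labelled libraries and 306 to 348 CPM in the C3 KO-labelled ones, with a log2 fold change of 0.01 ± 0.05. Hk2, the form known to be induced by HIF, did not overlap between labels (16.8 to 18.6 CPM against 14.5 to 16.0 CPM) but missed the threshold, with a log2 difference of -0.21 ± 0.09 (SE, edgeR adjusted p = 0.13). Gpi1, which turns glucose-6-phosphate to fructose-6-phosphate, had the opposite sign and also did not overlap, at 268 to 283 against 285 to 304 CPM, with a log2 difference of 0.10 ± 0.04 (SE, edgeR adjusted p = 0.131).

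Aldolase splits the phosphorylated sugar into triose phosphates, and its pair of isoforms moved in opposite directions. Aldoa was at 777, 839, 784 and 814 CPM under the WT label and 691, 753, 726 and 743 CPM under the C3 KO label. Every C3 KO-labelled value lay below every WT-labelled one, with a log2 difference of -0.14 ± 0.05 (SE, edgeR adjusted p = 0.0488). Aldoc, the form known from brain and glia, was at 76.5, 72.1, 67.6 and 69.7 CPM and at 77.5, 78.4, 80.2 and 87.4 CPM. All its C3 KO-labelled values lay above the WT-labelled ones, with a log2 difference of 0.18 ± 0.06 (SE, edgeR adjusted p = 0.0393). Both calls sat near the threshold: without 1 library they held in 2 of 8 fits for Aldoa and in 3 of 8 for Aldoc. For Aldoa they were lost without WT-labelled replicate 2, 3 or 4 or C3 KO-labelled replicate 1, 3 or 4 (adjusted p of 0.0587 to 0.146), and for Aldoc without WT-labelled replicate 2, 3 or 4 or C3 KO-labelled replicate 3 or 4 (0.0797 to 0.185).

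None of the 6 enzymes from triose phosphate isomerase to enolase was called by edgeR, nor was any at an unadjusted p below 0.05, and DESeq2 and limma-voom called none of them. Their log2 fold changes were -0.08 for Tpi1, -0.19 for Gapdh, -0.08 for Pgk1, -0.07 for Pgam1, -0.06 for Eno1 and 0.10 for the neuronal enolase Eno2. Of these 6 values, 5 were below 0 and that of Eno2 was above. Gapdh was listed at only 8.08 to 9.78 CPM under the WT label. It has 74 processed pseudogenes of at least 95% identity over at least 300 bases in the GENCODE M21 annotation, so its level is uncertain, and no label or file says how reads that match several copies were handled. The same count was 4 for Pgk1, 3 for Ldha, 2 each for Eno1 and Bnip3, 1 each for Gpi1, Tpi1, Pgam1, Pkm2, Ldhb and Bnip3l, and 0 for the other genes of the set.

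The last steps, from pyruvate kinase to lactate, held the most abundant transcripts, and both Ldha and Pkm2 fell in the C3 KO-labelled libraries. Ldha, the lactate dehydrogenase subunit that favours making lactate, was at 1544, 1622, 1529 and 1500.2 CPM under the WT label and 1338, 1283, 1325 and 1385 CPM under the C3 KO label. No values overlapped. The means were 1549 ± 52.1 and 1333 ± 42.1 CPM (SD, n = 4 each), with a log2 difference of -0.22 ± 0.05 (SE, edgeR adjusted p = 0.0038). Ldhb, the subunit that favours using lactate, was not called, with a log2 difference of -0.01 ± 0.05 (SE, edgeR adjusted p = 0.964). Pkm2, listed under the older symbol of the Pkm gene and so covering both of its splice forms, was at 1207, 1440.4, 1296 and 1345 CPM and at 1178, 1168, 1161 and 1171 CPM. The C3 KO-labelled values were close together (SD of 6.90 CPM, n = 4) and below all WT-labelled ones. The difference was -0.18 ± 0.05 on the log2 scale (SE, edgeR adjusted p = 0.0251), and the call was lost without WT-labelled replicate 2 (0.0815) or C3 KO-labelled replicate 3 (0.0614) or 4 (0.0628).

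**Figure D2:**
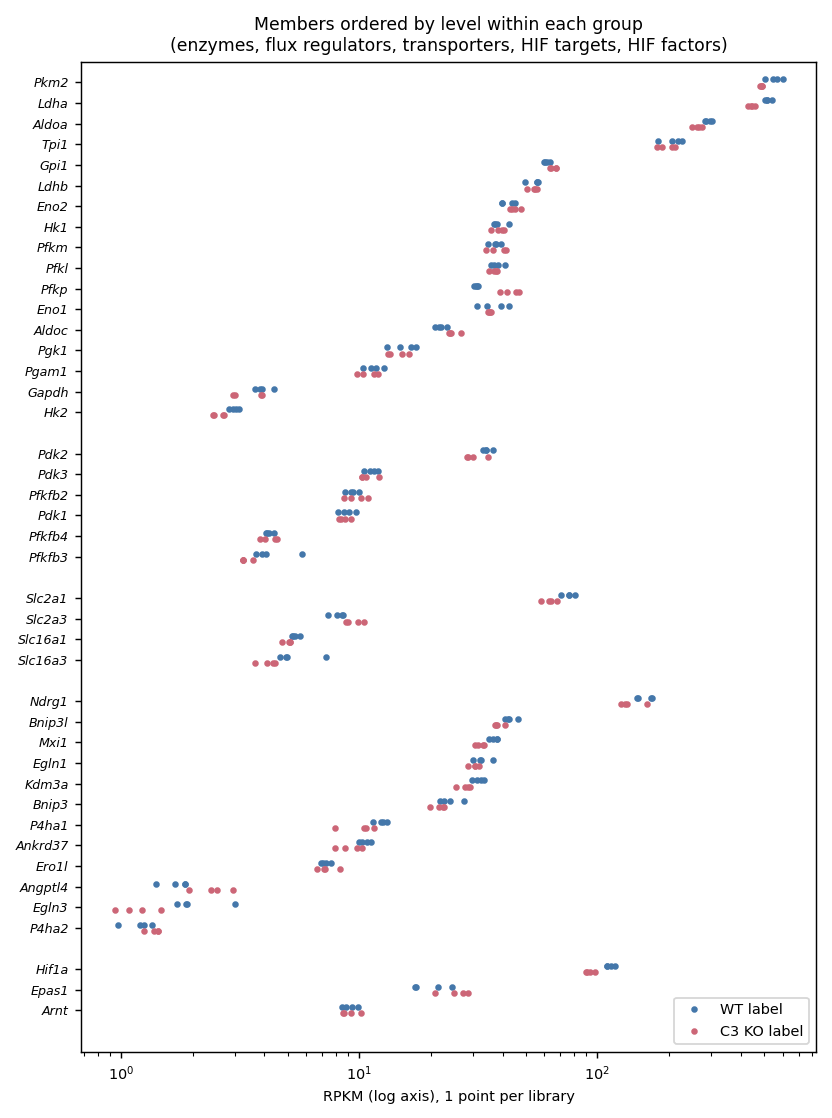
Level of each of the 42 genes per transcript length, in the authors' RPKM turned back from log2, on a log axis, with 1 point per library and the labels in blue (WT) and red (C3 KO). Pkm2 and Ldha stand highest under both labels, and Egln3 and Angptl4 are among the lowest.

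Per length, Pkm2 at 555 ± 40.7 RPKM and Ldha at 521 ± 15.9 RPKM were the most abundant transcripts of the set under the WT label (SD, n = 4), and they did not differ from each other beyond their spread. Aldoa followed at 293 ± 10.3 RPKM. Hk1, Pfkl, Pfkm and Eno1 lay close together at 38.6 ± 2.68, 38.0 ± 2.16, 37.2 ± 1.96 and 37.0 ± 5.06 RPKM, within 1 SD of Eno1. Lactate dehydrogenase subunits summed to 575 ± 16.4 RPKM under the WT label and 499 ± 12.9 RPKM under the C3 KO label. Aldolase summed to 315 ± 10.1 and 288 ± 10.7 RPKM, whereas the hexokinase sum was 41.6 ± 2.78 and 41.1 ± 2.21 RPKM.

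Of the 6 regulators 16.7% were called, near the 14.3% over all genes tested, and Pfkfb3 was the one. It makes fructose-2,6-bisphosphate, the strongest known activator of phosphofructokinase, and it was at 27.4, 25.8, 28.3 and 40.0 CPM under the WT label and 22.8, 22.6, 25.2 and 22.8 CPM under the C3 KO label. The WT-labelled replicate 4 was the highest and the labels did not overlap. The log2 fold change was -0.38 ± 0.11 (SE, edgeR adjusted p = 0.03), and without WT-labelled replicate 4 it was -0.23 with an adjusted p of 0.0849. The call was also lost without C3 KO-labelled replicate 1 (0.0779), 2 (0.0737) or 4 (0.0776). The related Pfkfb2 and Pfkfb4 had log2 fold changes of 0.07 and 0.02. The pyruvate dehydrogenase kinases, which keep pyruvate out of the mitochondrion, stood at -0.03 for Pdk1, -0.17 for Pdk2 and -0.05 for Pdk3. Pdk2 was the closest of them to the threshold (edgeR adjusted p = 0.0566), and it was called with no expression filter (0.0472) and without C3 KO-labelled replicate 2 (0.0051).

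Transporters were called for 3 of 4, and the main glucose carrier and the neuronal one moved in opposite directions. Slc2a1 (GLUT1), which carries glucose across the blood-retina barrier and into most retinal cells, was at 200.2, 216, 216 and 227 CPM under the WT label and 179, 192, 184 and 167 CPM under the C3 KO label. All WT-labelled values were above all C3 KO-labelled ones. The means of 215 ± 11.1 and 180.4 ± 10.3 CPM (SD, n = 4 each) gave a log2 difference of -0.25 ± 0.05 (SE, edgeR adjusted p = 0.00188). Slc2a3 (GLUT3), the neuronal carrier, was at 61.6, 53.3, 60.8 and 58.1 CPM and 63.5, 64.6, 76.2 and 72.2 CPM. Here the C3 KO-labelled values were the higher ones throughout, with a log2 difference of 0.24 ± 0.07 (SE, edgeR adjusted p = 0.0168). This call was lost without WT-labelled replicate 2 (0.075) or C3 KO-labelled replicate 3 (0.0867) or 4 (0.0723). Per length, Slc2a3 made up 9.71% ± 0.883 of the summed RPKM of the pair in the WT-labelled libraries and 13.1% ± 1.37 in the C3 KO-labelled ones (SD, n = 4 each).

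The lactate exporter Slc16a3 (MCT4), known as a HIF target, was at 24.5, 26.0, 26.3 and 38.1 CPM under the WT label and at 21.6, 19.2, 23.6 and 23.1 CPM under the C3 KO label. The WT-labelled replicate 4 again stood above the rest. The log2 fold change was -0.39 ± 0.12 (SE, edgeR adjusted p = 0.0397), and without that library it was -0.23 with an adjusted p of 0.0971. Leaving out any 1 of the C3 KO-labelled libraries ended the call as well (0.0502 to 0.103). Slc16a1 (MCT1) was not called, with a log2 difference of -0.09 ± 0.08 (SE, edgeR adjusted p = 0.488).

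**Figure D3:**
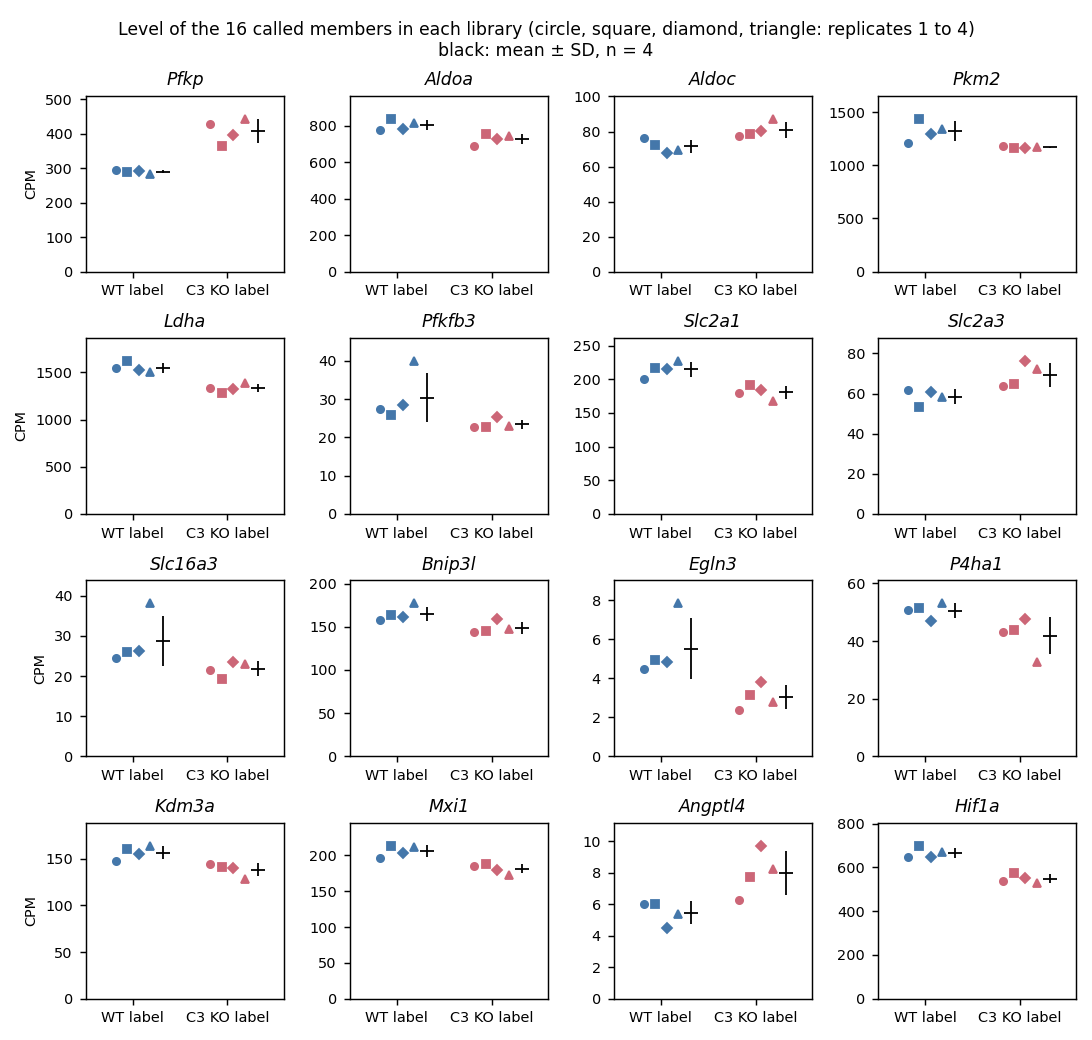
CPM of the 16 called genes in each library, 1 panel per gene with its own linear axis, with 1 marker shape per replicate and black bars for the mean ± SD of 4 libraries. WT-labelled replicate 4 is the highest point for Pfkfb3 at 40.0, Slc16a3 at 38.1 and Egln3 at 7.85 CPM.

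Among the 12 HIF targets outside glycolysis, the oxygen sensor Egln3 showed the largest change of the set. Egln3 (PHD3) is a prolyl hydroxylase that marks HIF-α for breakdown and is itself induced by HIF. It was at 4.46, 4.95, 4.84 and 7.85 CPM under the WT label and 2.39, 3.12, 3.84 and 2.78 CPM under the C3 KO label. The labels did not overlap, although WT-labelled replicate 4 was far above the other 3. The means of 5.52 ± 1.56 and 3.03 ± 0.612 CPM (SD, n = 4 each) gave a log2 difference of -0.86 ± 0.20 (SE, edgeR adjusted p = 0.00619). Without WT-labelled replicate 4 the log2 fold change was -0.65 and the call held (adjusted p = 0.0354). Egln1 (PHD2), the main prolyl hydroxylase of normal tissue, was not called, with a log2 difference of -0.10 ± 0.06 (SE, edgeR adjusted p = 0.274).

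A pair of HIF-induced regulators of transcription also fell. Mxi1, which antagonises Myc, was at 196, 214, 203 and 212 CPM under the WT label and 185, 187, 179 and 173 CPM under the C3 KO label, without overlap and with a log2 difference of -0.18 ± 0.05 (SE, edgeR adjusted p = 0.00935). Kdm3a, a histone H3 lysine 9 demethylase, was at 147, 161, 155 and 164 CPM and 145, 141, 139.8 and 128 CPM. Its labels were separate by a narrow gap, with a log2 difference of -0.18 ± 0.05 (SE, edgeR adjusted p = 0.021), and the call was lost without WT-labelled replicate 4 (0.057) or C3 KO-labelled replicate 4 (0.0877).

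The mitophagy receptor Bnip3l and the collagen prolyl hydroxylase P4ha1 fell as well, with overlapping values. Bnip3l was at 158, 164, 162 and 177 CPM under the WT label and 144, 145, 159 and 147 CPM under the C3 KO label, with a log2 difference of -0.15 ± 0.05 (SE, edgeR adjusted p = 0.0425). P4ha1 was at 50.8, 51.5, 46.8 and 53.1 CPM and 43.2, 43.9, 47.8 and 32.6 CPM, and its C3 KO-labelled replicate 4 was the lowest of the 8. Its log2 fold change was -0.27 ± 0.09 (SE, edgeR adjusted p = 0.0484). Each of these calls held in 2 of the 8 fits that left out 1 library. Bnip3l lost its call without WT-labelled replicate 2, 3 or 4 or C3 KO-labelled replicate 1, 2 or 4 (0.0521 to 0.12), and P4ha1 without WT-labelled replicate 1, 2 or 4 or C3 KO-labelled replicate 1, 2 or 4 (0.0577 to 0.121).

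Angptl4, a secreted inhibitor of lipoprotein lipase, was the HIF target that rose. It was at 6.00, 6.00, 4.47 and 5.37 CPM under the WT label and 6.26, 7.70, 9.70 and 8.24 CPM under the C3 KO label. No values overlapped, with a log2 difference of 0.54 ± 0.15 (SE, edgeR adjusted p = 0.0199), and the call was lost without WT-labelled replicate 3 (0.0807) or C3 KO-labelled replicate 3 (0.0924) or 4 (0.0605). The remaining 6 targets were not called. Their log2 fold changes were -0.14 for the mitophagy receptor Bnip3, -0.19 for Ankrd37, -0.19 for Ndrg1, 0.03 for the disulfide oxidase Ero1l and 0.21 for P4ha2, beside that of Egln1. Ndrg1, the most abundant of the 12 by CPM, had means of 1039 ± 80.6 and 912 ± 103 CPM (SD, n = 4 each; edgeR adjusted p = 0.0856).

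Of the HIF subunits, Hif1a fell. It was at 647, 699, 647 and 669 CPM under the WT label and 536, 575, 552 and 529.7 CPM under the C3 KO label, and every WT-labelled library lay above every C3 KO-labelled one. The means were 665 ± 24.7 and 548 ± 20.4 CPM (SD, n = 4 each), with a log2 difference of -0.28 ± 0.05 (SE, edgeR adjusted p = 0.000379). Messenger RNA does not measure the HIF-1α protein, whose level is known to be set mainly by its breakdown. Epas1 (HIF-2α), known from endothelium and astrocytes, was at 129.6, 91.7, 114 and 90.1 CPM and 152, 110.0, 146 and 133 CPM. Its values overlapped and varied within labels, with a log2 difference of 0.35 ± 0.15 (SE, edgeR adjusted p = 0.19). Other fits did call it: limma-voom gave an adjusted p of 0.0281, edgeR without robust dispersion 0.0274, and edgeR without WT-labelled replicate 1 0.0357. Their shared partner Arnt was at 70.3, 79.0, 74.0 and 66.9 CPM and 81.1, 73.6, 69.2 and 69.7 CPM, with a log2 difference of 0.02 ± 0.06 (SE, edgeR adjusted p = 0.888).

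Ratios between isoforms within a library do not depend on how libraries are scaled. Of 13 such ratios, 8 did not overlap between labels. Each had an exact 2-sided permutation p of 0.0286, the smallest that 70 splits allow, and an adjusted p of 0.0464 over the 13. That adjusted p follows from how many ratios reached the smallest p, so it does not weigh any single ratio. All 8 pairs but Hk2 over Hk1 hold a gene called in the same counts. How often other gene pairs separate was not counted. The mean log2 ratio of reads differed, C3 KO label minus WT label, by -0.75 for Egln3 over Egln1, -0.49 for Slc2a1 over Slc2a3, -0.28 for Slc16a3 over Slc16a1, -0.22 for Hk2 over Hk1 and -0.21 for Ldha over Ldhb. It differed by 0.45 for Pfkp over Pfkm, 0.32 for Aldoc over Aldoa and 0.50 for P4ha2 over P4ha1. The gene named first was thus lower relative to its partner in 5 of the 8 pairs and higher in 3. None of the 13 ratios passed after adjustment when any 1 library was left out, where the smallest adjusted p was 0.0531 to 0.0743 and 5 to 7 ratios had an exact permutation p below 0.05. The 8 differences kept their direction in all of these. The smallest possible p was again 0.0286, so whether ratios passed turned on how many reached it. The Slc16a3 over Slc16a1 difference was -0.12 without WT-labelled replicate 4. Hif1a over Epas1 differed by -0.63 but overlapped (exact permutation adjusted p = 0.0825), and the ratios Pfkl over Pfkm, Eno2 over Eno1, Pdk1 over Pdk2 and Bnip3 over Bnip3l did not pass either.

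**Figure D4:**
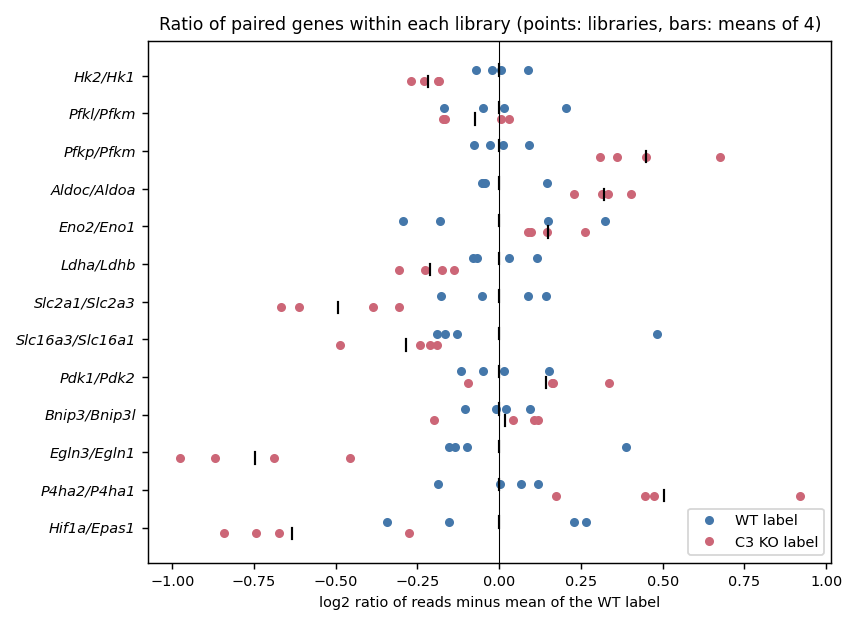
Log2 ratio of reads of 13 isoform pairs in each library, C3 KO-labelled and WT-labelled points side by side, each pair centred on its WT-labelled mean, with black bars for the means. The 8 pairs that do not overlap include Egln3 over Egln1 at a mean difference of -0.75 and P4ha2 over P4ha1 at 0.50.

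Across single libraries, WT-labelled replicate 4 stood out for HIF targets. It was the highest WT-labelled library for 9 of the 12 HIF targets, 3 of the 6 flux regulators and 2 of the 4 transporters. The count was 2 of the 17 glycolytic enzymes and 16 of all 42 genes, and it was not made over all genes tested. Its mean log2 CPM, centred on the WT-labelled mean of each gene, was 0.08 for the flux regulators and 0.11 for the transporters. These means leaned on 1 gene each, Pfkfb3 at 0.42 and Slc16a3 at 0.43. In that library the other regulators ran from -0.11 to 0.13 and the other transporters from -0.05 to 0.08. The mean log2 CPM of the 12 targets, each centred on its WT-labelled mean, was -0.05, 0.01, -0.09 and 0.13 in WT-labelled replicates 1 to 4 and -0.18, -0.08, -0.07 and -0.17 in C3 KO-labelled replicates 1 to 4. WT-labelled replicate 3 thus lay within the range of the C3 KO-labelled libraries. Y-linked reads were high in that library, though its Xist was at 295 CPM against 1.48 to 2.65 CPM under the C3 KO label. A link between sex and the HIF targets was not tested. For the 17 enzymes the same means ran from -0.03 to 0.03 under the WT label and from -0.04 to 0.02 under the C3 KO label, and they overlapped.

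**Figure D5:**
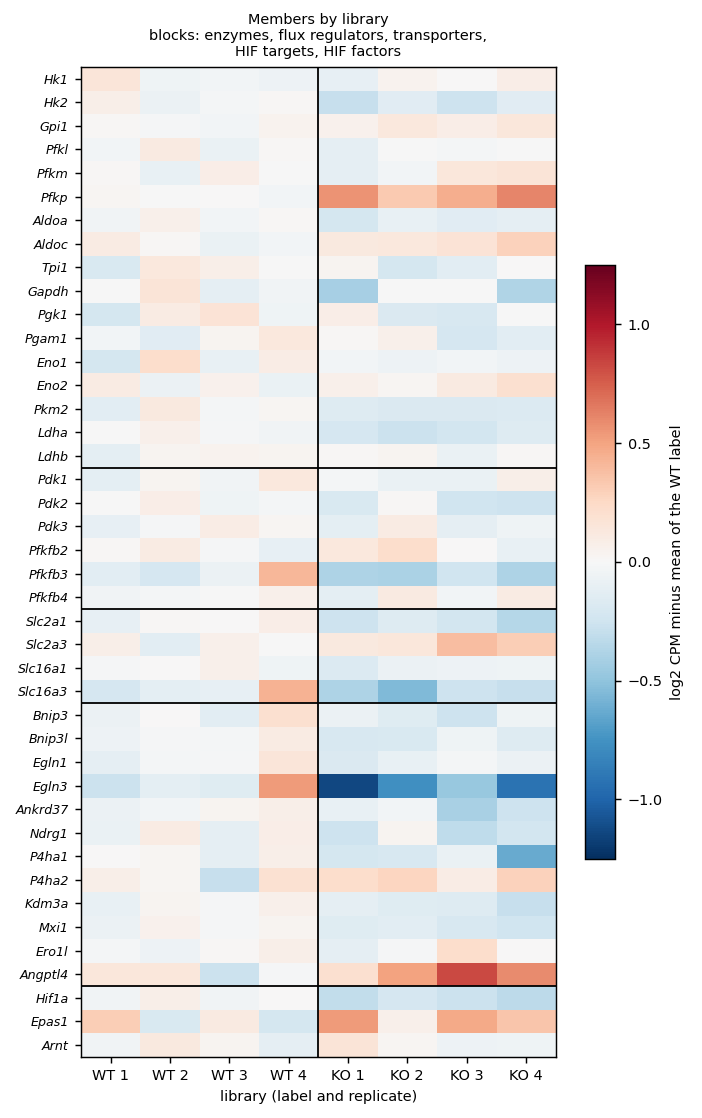
Log2 CPM of each of the 42 genes (rows, grouped by role) in each library (columns), as the deviation from the mean of the 4 WT-labelled libraries, blue below 0 and red above 0. Pfkp is above 0 in all C3 KO-labelled columns, and Egln3 is below 0 in them and above 0 in WT-labelled replicate 4.

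Calls for Pfkp, Ldha, Slc2a1, Egln3, Mxi1 and Hif1a held in all 8 fits that left out 1 library. The number of called genes of the set ranged from 6 without C3 KO-labelled replicate 4, where 8.19% of all genes were called, to 16 without WT-labelled replicate 1. It was 9 without WT-labelled replicate 4 (10.9% of all genes called), 12 without WT-labelled replicate 3 (10.7%), 10 without WT-labelled replicate 2 (9.75%) and 10 without C3 KO-labelled replicate 3 (9.73%). Of the 6 called HIF targets, Egln3, Mxi1 and Angptl4 stayed called without WT-labelled replicate 4, and Egln3, Mxi1, Kdm3a and P4ha1 without WT-labelled replicate 3. With the Y-linked level as a covariate, 3 genes stayed called, Pfkp (log2 fold change 0.50, edgeR adjusted p = 0.00232), Slc2a1 (-0.30, 0.0356) and Hif1a (-0.27, 0.0393), where 3.34% of all genes were. With 1 surrogate variable in the fit, called genes were Pfkp (0.42, 0.000644), Ldha (-0.24, 0.0328) and Hif1a (-0.22, 0.0404), where 2.68% of all genes were. HIF targets outside glycolysis had no call by edgeR in either of these fits, with 5 and 1 of the 12 at an unadjusted p below 0.05. Their median log2 fold change, -0.16 without a covariate, was -0.16 with the Y-linked covariate, with Egln3 at -0.85 and Mxi1 at -0.21, and with the surrogate variable it was -0.05, with Egln3 at -0.50 and Mxi1 at -0.11. The Y-linked level and the surrogate variable correlated with the label at 0.73 and 0.68. In these fits their part and that of the label cannot be told apart. Other tools were not run with these covariates.

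Other genes of the pathways were taken from lists written out in full. Of 27 other hypoxia-inducible genes, 5 fell and 1 rose. That is 22.2%, where 14.3% of all genes tested were called, 5.98% lower and 8.33% higher. Ddit4, a hypoxia-induced inhibitor of mTORC1, changed by -0.68 ± 0.07 on the log2 scale (SE, edgeR adjusted p = 1.98e-06), and Cox4i2, the cytochrome oxidase subunit for low oxygen, by -0.51 ± 0.12 (0.00673). The other 3 that fell, named after their values were seen, were Adm, Ndufa4l2 and Gbe1. Car12, a membrane carbonic anhydrase, rose by 1.57 ± 0.18 on the log2 scale (4.10e-06). Of 10 genes of oxygen sensing 30% were called. Cited2, which competes with HIF for its coactivator, fell (-0.25 ± 0.05, edgeR adjusted p = 0.00221). Arnt2 (0.46 ± 0.06, 3.45e-05) and the elongin B gene Tceb2 (0.22 ± 0.06, 0.0124) rose.

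Genes that take glucose carbon beyond glycolysis had few calls. None of the 16 citric acid cycle genes was called by edgeR, DESeq2 or limma-voom, and none had an unadjusted p below 0.05. The 7 pentose phosphate genes had no call by any of these tools, with 2 at an unadjusted p below 0.05 by edgeR, and the 9 other measured glycolytic isoforms had none by edgeR or DESeq2, with 2 below 0.05 and 1 call by limma-voom. Pdha1, the catalytic subunit that feeds pyruvate to the citric acid cycle, was the call among 9 genes of the pyruvate dehydrogenase complex. It was higher by 0.15 ± 0.05 (SE, edgeR adjusted p = 0.0332). At 11.1% called, this list was below the 14.3% over all genes tested. Among other glucose and lactate transporters, Slc16a8 (0.82 ± 0.17, 0.00240) and Slc2a6 (0.53 ± 0.15, 0.0184) rose. Slc16a8 (MCT3) is the lactate transporter of the pigment epithelium, whose marker list, which includes it, was higher under the C3 KO label for 9 of 12 genes.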

How the data were processed

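The authors deposited whole-number read counts per gene and, in a second table, log2 RPKM values. STAR, HTSeq and the builds mm9 and NCBIM37 stand in the submitters' processing notes, with no tool version. Whether strand was used in counting is not stated there. Compared with the counts, the deposited log2 RPKM values were the logarithm of the count plus a small prior, within 0.0133. They were turned back to RPKM for levels and used in tests only as an alternative.

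Counts were tested in R 4.3.3 with edgeR 4.0.16 (TMM, filterByExpr, robust quasi-likelihood test). The 4 libraries labelled C3 KO were set against the 4 labelled WT without covariates, and p-values were adjusted over 15850 genes, with 259 left out by the filter. CPM came from edgeR. The procedure was tested on simulated counts. Isoform ratios, with 0.5 reads added, were compared by exact permutation. Alternatives used DESeq2 1.42.0, limma 3.58.1 and sva 3.50.0. Promoters came from RefSeq (40 genes matched by symbol, 2 through an older one), and pseudogene copies were found with blastn 2.17.0.

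Members, lists and tests were chosen with earlier results of these data known. The genes named were drawn from C3 and Xist, every member, and the 3 genes with the smallest p of each further pathway list. Rlbp1 and Pdgfra were named beside these after their values were seen. One result on a further transporter is not reported here.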

Additional observations from a re-analysis of the deposited data

Results flagged for a closer look

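In groups of 4 libraries, 9 of 130 gene and label combinations held 1 library far from the other 3 (a gap above Dixon's critical share of the group's range), 6 of them among the 84 combinations of the glycolysis and hypoxia set. Chance flags about 1 in 20 groups. WT-labelled replicate 4 was high for the lactate exporter Slc16a3, at 38.1 CPM against 24.5 to 26.3 CPM, for the prolyl hydroxylase Egln3, at 7.85 against 4.46 to 4.95 CPM, and for the HIF antagonist Cited2, at 145 against 131 to 132 CPM. WT-labelled replicate 1 was high for Hk1, at 363 against 312 to 321 CPM, and low for Ldhb, at 78.3 against 87.1 to 87.9 CPM. C3 KO-labelled replicate 1 was low for Slc16a1, at 20.9 against 22.5 to 22.8 CPM, and high for Tceb2, at 80.3 against 72.1 to 73.3 CPM. C3 KO-labelled replicate 3 was high for Pfkfb3, at 25.2 against 22.6 to 22.8 CPM. WT-labelled replicate 3 was low for Xist, at 295 against 2195 to 2441 CPM.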

How the results depend on the processing

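All 42 genes were followed through 21 alternatives, 8 of which left out 1 library each. The 16 called genes kept their direction in every one of them. On log2(RPKM + 1), log2(RPKM + 0.1) and log2(RPKM + 1) with a mean of at least 1 RPKM, calls over all genes were 1338, 958 and 1325, against 2269 in the count test. Of the 42 genes 6, 4 and 7 were called (4, 3 and 5 lower, 2, 1 and 2 higher), of the enzymes 2 in each, and of the HIF targets 2, 1 and 3. With the Y-linked covariate and with 1 surrogate variable, calls were 530 and 424 over all genes, 3 and 3 of the 42 (2 lower and 1 higher in each), 1 and 2 of the enzymes and 0 and 0 of the HIF targets. The median log2 fold change of the 42 genes was -0.13 with the Y-linked covariate and -0.03 with the surrogate variable, against -0.08 without either: Ldha stood at -0.21 and -0.24, Kdm3a at -0.21 and -0.08, and Pkm2 at -0.22 and -0.09. Leaving out 1 library gave 1305 to 2543 genes, 6 to 16 of the 42, 5 to 11 lower, 1 to 5 higher, 2 to 5 enzymes and 2 to 5 HIF targets. The Y-linked covariate and the surrogate variable both correlated with the label (0.73 and 0.68). The cause was not tested.

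The labels do not say whether replicate numbers pair libraries. The deviations of same-numbered libraries had correlations of -0.060, 0.088, 0.0038 and -0.056, and those of other pairs ran from -0.084 to 0.081. Not every library correlated best with its own number, and values this small cannot decide whether libraries were paired. With a replicate block 2400 genes and 18 of the 42 were called, Aldoa was lost (adjusted p = 0.0519), and Pdk2, Ndrg1 and Epas1 were gained. Dropping the expression filter also gained Pdk2. Upper-quartile scaling and non-robust dispersion also lost Aldoa, and 8 isoform ratios passed both from RPKM and with 2 reads added. Without 1 library 0 of 13 ratios passed after adjustment, in each of the 8 cases, and with a replicate block no ratio can go below an exact p of 0.125. Bnip3 over Bnip3l, which never passed, ran from -0.018 to 0.089 without 1 library.

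Changes of sign occurred for 12 genes, none of them called in the count test, and the values were at most 0.12 in size. The log2 fold change of Hk1 became -0.0017 with no expression filter, -0.00051 on log2(RPKM + 1) with or without the RPKM minimum, -0.00050 on log2(RPKM + 0.1) and -0.084 with 1 surrogate variable. With the surrogate variable it was 0.0091 for Pfkl, -0.042 for Pfkm, 0.030 for Pgam1, 0.12 for Eno1, -0.023 for Eno2, 0.063 for Ldhb, 0.054 for Pdk1 and 0.021 for Pdk3, and with the Y-linked covariate -0.032 for Arnt. Leaving out 1 library gave -0.025 to 0.060 for Hk1, -0.0067 to 0.090 for Pfkm, -0.13 to 0.012 for Eno1, -0.044 to 0.016 for Ldhb, -0.073 to 0.0061 for Pdk1, -0.019 to 0.062 for Pfkfb4, -0.048 to 0.070 for Ero1l and -0.035 to 0.052 for Arnt.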
